A study of Mus musculus with 15 samples.

Results

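The endothelin system of the mouse thoracic aorta was followed through 4 genes, namely the ligand gene Edn1, the receptor genes Ednra and Ednrb, and the activating protease gene Ece1. They were taken from the gene count table by symbol, and each matched 1 of its 37681 rows. All 4 passed the filter on low counts, which left 15134 genes. Polyadenylated RNA was sequenced from male, wild-type, adult C57BL/6 mice aged 10 to 12 weeks on regular chow. The celecoxib group received 30 mg/kg of the cyclooxygenase-2 inhibitor celecoxib, the rofecoxib group 10 mg/kg of the cyclooxygenase-2 inhibitor rofecoxib, and the vehicle group PEG-400 alone. Each dose was 100 microlitres by gavage, and the aorta was taken 6 hours later, at Zeitgeber hour 11. Each group held 5 libraries. The design asks what each inhibitor did to aortic transcripts against vehicle and how the inhibitors compared, at doses that differ.

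Endothelin-1 is among the most potent vasoconstrictors known and is released mainly by endothelial cells. Its precursor is cut by furin-like proprotein convertases to big endothelin-1, which the membrane protease endothelin-converting enzyme 1, the product of Ece1, turns into the active peptide. The ETA receptor, encoded by Ednra, sits on smooth muscle and drives contraction through Gq signalling. The ETB receptor, encoded by Ednrb, sits chiefly on endothelium, where it triggers release of nitric oxide and prostacyclin and clears the peptide from the blood. Prostacyclin is a product of the cyclooxygenases that celecoxib and rofecoxib act on.

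The mature peptides are encoded by 21 codons, shown here to set Edn1 beside its paralogs Edn2 and Edn3. Capitals mark the codons of the 4 cysteines that form the disulfide bridges and of the last residue, a tryptophan, after which the converting enzyme cuts. The sequences are from GENCODE M21 transcripts on GRCm38.
Edn1: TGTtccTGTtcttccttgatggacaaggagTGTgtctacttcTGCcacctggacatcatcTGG
Edn2: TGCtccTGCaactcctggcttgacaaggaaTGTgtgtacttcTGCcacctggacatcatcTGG
Edn3: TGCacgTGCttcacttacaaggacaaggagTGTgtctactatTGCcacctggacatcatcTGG
Edn1 shared 53 of the 63 bases with Edn2 and 50 of 63 with Edn3. Of these 3 ligand genes Edn1 carried nearly all of the aortic signal, as the levels below show.

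The window around the Edn1 start site is shown because transcription of this gene is known to depend on GATA and AP-1 factors and to respond to hypoxia. The window runs from 250 bases before to 50 bases after the RefSeq start site, on the plus strand of GRCm38.p6, at chr13:42301226-42301525.
Edn1 promoter: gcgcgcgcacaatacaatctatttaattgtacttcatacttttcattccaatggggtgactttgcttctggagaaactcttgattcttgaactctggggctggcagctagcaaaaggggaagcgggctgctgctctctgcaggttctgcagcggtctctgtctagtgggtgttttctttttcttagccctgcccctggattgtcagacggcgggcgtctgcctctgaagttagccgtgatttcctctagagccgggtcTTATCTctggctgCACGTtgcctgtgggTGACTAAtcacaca
Capitals mark, from left to right, a GATA motif (AGATAA on the other strand), a hypoxia response core (ACGTG on the other strand) and an AP-1 type motif (TGACTAA), none of which overlap. Both strands were searched. Of 32851 promoter windows of the same length, 11.2% held the GATA motif, 19.6% the hypoxia core and 2.35% the AP-1 type motif, and 26 windows, 0.0791%, held all 3. All 3 lie downstream of this RefSeq start site, at 8, 21 and 36 bases. Where transcription of Edn1 starts in these aortas was not determined, so their place relative to the start in use is not known. The window holds 0 matches to the AP-1 consensus TGANTCA, which 7.81% of windows hold. No window of Ednra, Ednrb or Ece1 held the GATA or the AP-1 type motif, while 1 Ece1 window held 2 overlapping matches to the hypoxia core. Ece1 had 4 RefSeq start windows, and the gene counts sum the transcripts from all of them. The motifs were chosen for what is known of Edn1, so the shares of windows that hold them are no test of Edn1. These matches describe letters in the windows only.

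Per the deposited coordinates on mm9, Edn1 (ENSMUSG00000021367) lies on chromosome 13 from 42396437 to 42403560 and Ednra (ENSMUSG00000031616) on chromosome 8 from 80186728 to 80248565. Ednrb (ENSMUSG00000022122) lies on chromosome 14 from 104213640 to 104243592 and Ece1 (ENSMUSG00000057530) on chromosome 4 from 137417950 to 137521346. No other row of the table overlaps Edn1 or Ednrb. The row that overlaps Ednra averaged 4.13 counts per library and the 2 that overlap Ece1 at most 0.667, against at least 413 for Ednra and 3925 for Ece1 themselves.

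The deposited counts summed to between 30937046 and 30967115 per library. Smooth muscle and endothelial markers were all detected, with Acta2, smooth muscle actin, at a mean of 19500 CPM (counts scaled to a common library size) and Pecam1, an endothelial adhesion molecule, at 333 CPM. The sum of the 15 endothelial markers ranged from 881 to 1400 CPM in celecoxib, from 797 to 1280 in rofecoxib and from 1000 to 1370 in vehicle. Of the 15, 13 had a negative log2 fold change in celecoxib against vehicle and 14 in rofecoxib against vehicle, none of them called by edgeR. Over all 15134 genes tested, 7348 and 7616 were negative in these comparisons. The median log2 fold change of the list was -0.163 and -0.21. In celecoxib against vehicle the 2 positive markers were Pecam1, at 1.08-fold, and Cldn5, at 1.01-fold. The vascular endothelial growth factor receptor gene Kdr averaged 19.97 ± 7.51 CPM in celecoxib, 27.6 ± 8.85 in rofecoxib and 35.4 ± 4.66 in vehicle. Its p by edgeR in celecoxib against vehicle, 0.00625 unadjusted and 0.276 adjusted, was the smallest of the 15 markers. The sum of the Schwann cell and sympathetic neuron markers, 19 of 20 of which matched a row, ranged far more widely, from 79.0 to 1240 CPM in celecoxib, from 83.5 to 846 in rofecoxib and from 116 to 588 in vehicle. Celecoxib 1 and celecoxib 4 stood apart, with 259 and 248 tested genes that were at least 1.5-fold above every other library. For the other 13 libraries that count was 0 to 47.

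To order the 4 genes by level, CPM were divided by the exon length of GENCODE M21, since a longer transcript gives more reads. Ece1 was the most abundant, with 35.6 ± 11.8 CPM per kilobase (SD, n = 5) in celecoxib, 27.3 ± 2.64 in rofecoxib and 29.6 ± 2.76 in vehicle. Edn1 followed with 8.996 ± 1.19 CPM per kilobase in celecoxib, 8.38 ± 1.24 in rofecoxib and 8.83 ± 0.866 in vehicle. Ednra stood at 3.77 ± 1.01, 3.41 ± 0.497 and 3.67 ± 0.492 CPM per kilobase in the same groups, and Ednrb at 2.77 ± 1.29, 2.35 ± 0.675 and 2.69 ± 0.653. In 15 of 15 libraries Ece1 lay above Edn1, Edn1 above Ednra and Ednra above Ednrb. The last of these steps was the smallest, with a ratio of Ednra to Ednrb of 1.04 to 2.11 per library, and over libraries the ranges of the receptors overlapped. With the length of the longest protein-coding transcript in place of all exons the same order held in 15 of 15 libraries, and the ratio of Ednra to Ednrb was 1.51 to 3.07. The ratio did not separate the groups, with medians of 1.31 in celecoxib, 1.33 in rofecoxib and 1.37 in vehicle.

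**Figure D1:**
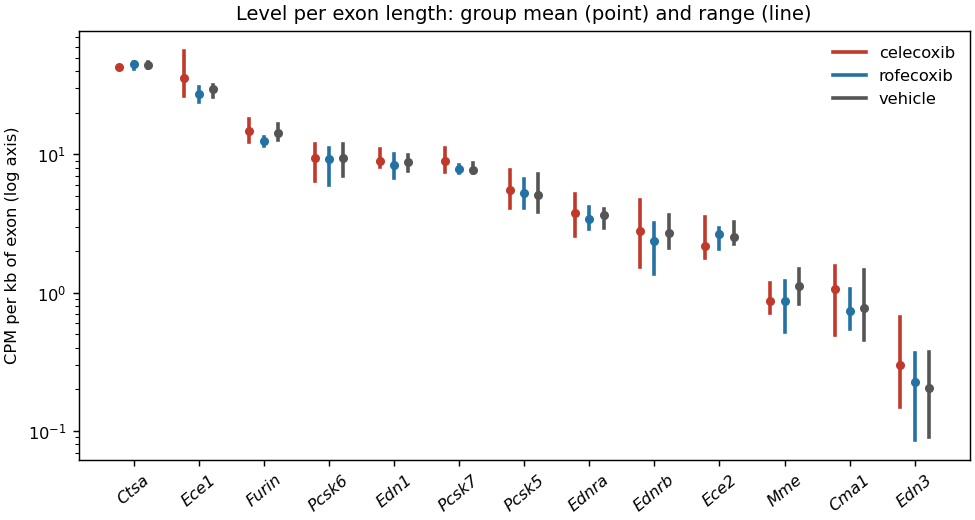
Level of the 4 endothelin genes and the tested genes of ligands, processing and breakdown except Ecel1, in CPM per kilobase of exon on a log axis. Points are group means and lines the range of 5 libraries per group (celecoxib red, rofecoxib blue, vehicle grey). Ece1 lies above Edn1, which lies above Ednra and Ednrb, and the ranges of the 3 groups overlap at each of these 4 genes.

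The ligand gene Edn1 had 20.2, 17.2, 17.3, 18.1 and 23.3 CPM in celecoxib 1 to 5. Rofecoxib 1 to 5 had 21.6, 18.5, 18.6, 16.4 and 14.5 CPM, and vehicle 1 to 5 had 18.0, 19.6, 21.3, 19.1 and 16.3 CPM. The 3 groups overlapped, and both the highest library, celecoxib 5, and the lowest, rofecoxib 5, were from treated mice. These values rest on 460 to 719 counts per library. The SD of Edn1 within groups was 0.182 on the log2 scale, and 51.3% of the tested genes had a smaller one. Without the highest library of each gene this SD was 0.160 for Edn1 and 0.142 for Ece1. In the quasi-likelihood fit of edgeR the fold change was 1.02 (95% interval 0.865 to 1.20, adjusted p = 0.944) in celecoxib against vehicle. It was 0.949 (0.806 to 1.118, adjusted p = 1) in rofecoxib against vehicle. Both intervals lie inside a 1.5-fold change in either direction. Without celecoxib 5 the log2 fold change in celecoxib against vehicle was -0.04 in place of 0.03.

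Ednra, the receptor gene of the contractile arm, had 14, 23.4, 17.9, 19.5 and 28.5 CPM in celecoxib 1 to 5. It had 19.2, 15.8, 22.7, 16.6 and 19.2 CPM in rofecoxib 1 to 5, and 21.6, 16.0, 21.98, 22.2 and 18.8 CPM in vehicle 1 to 5. The celecoxib libraries held both the lowest and the highest value of all 15, and spanned a 2.03-fold range where the vehicle libraries spanned 1.39-fold. The fold change was 1.03 (0.806 to 1.31, adjusted p = 0.947) in celecoxib against vehicle and 0.929 (0.729 to 1.18, adjusted p = 1) in rofecoxib against vehicle. Without celecoxib 5 the log2 fold change in celecoxib against vehicle was -0.09 in place of 0.04.

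Ednrb, the receptor gene of the endothelial, dilating arm, varied most. It had 8.30, 9.59, 6.60, 14.6 and 20.1 CPM in celecoxib 1 to 5. It had 11.3, 5.84, 8.89, 10.6 and 13.6 CPM in rofecoxib 1 to 5, and 9.22, 8.95, 15.5, 13.0 and 10.7 CPM in vehicle 1 to 5. Its highest library was 3.44-fold above its lowest, and 86.6% of the tested genes had a smaller SD within groups. The groups overlapped. The fold change was 1.03 (0.670 to 1.58, adjusted p = 0.966) in celecoxib against vehicle and 0.872 (0.566 to 1.34, adjusted p = 1) in rofecoxib against vehicle. Without celecoxib 5 the log2 fold change in celecoxib against vehicle was -0.22 in place of 0.04, and with the endothelial markers as a covariate that in rofecoxib against vehicle was 0.10 in place of -0.20. Changes of 1.5-fold upward in celecoxib and downward in rofecoxib lie within the intervals of the fold change.

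Ece1 had 298, 141, 157, 171 and 177 CPM in celecoxib 1 to 5. It had 162, 139, 155, 126 and 142 CPM in rofecoxib 1 to 5, and 144, 138, 164, 168 and 169 CPM in vehicle 1 to 5. One library, celecoxib 1, stood 1.68-fold above the next highest of the 15, while the other celecoxib libraries lay among or just above the vehicle libraries. All 5 rofecoxib libraries lay below the vehicle median, and the groups still overlapped. The fold change was 1.21 (0.949 to 1.53, adjusted p = 0.524) in celecoxib against vehicle and 0.922 (0.726 to 1.17, adjusted p = 1) in rofecoxib against vehicle. Without celecoxib 1 the log2 fold change in celecoxib against vehicle was 0.06 in place of 0.27, with adjusted p = 0.874 by edgeR. With the mean of 12 adipocyte markers as a covariate it was 0.58, with adjusted p = 0.408. The adipocyte markers summed to 762 to 2120 CPM in celecoxib and 1230 to 2780 CPM in rofecoxib, against 1690 to 4240 CPM in vehicle. Their mean log2 CPM was 5.15 in celecoxib, 5.63 in rofecoxib and 6.39 in vehicle. The covariate thus differed with treatment, and a fit with it cannot tell treatment from fat content. This holds wherever the covariate is used below.

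**Figure D2:**
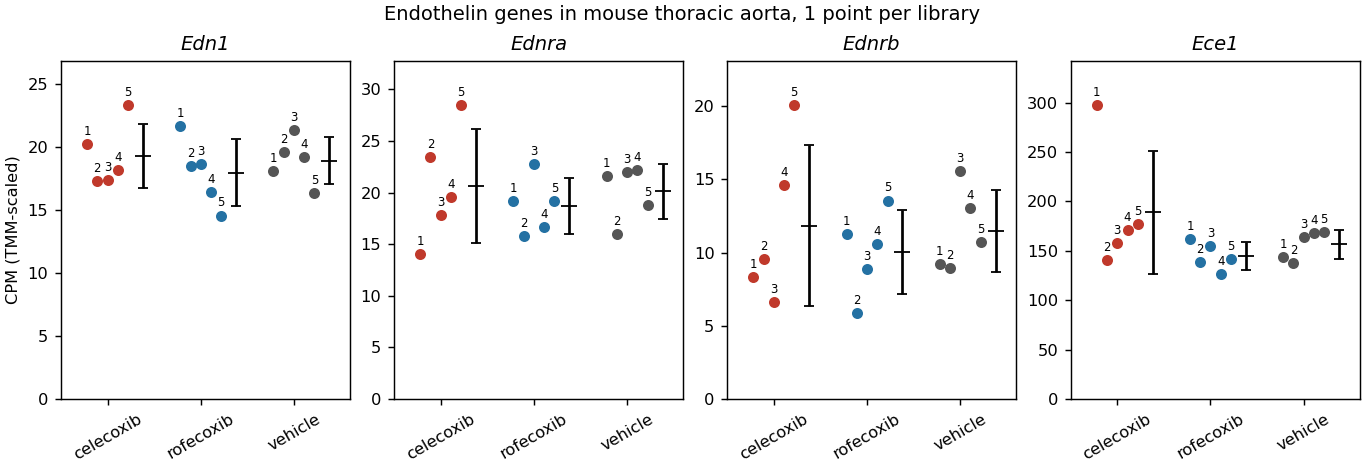
CPM of Edn1, Ednra, Ednrb and Ece1, with 1 point per library labelled by its number, for celecoxib (red), rofecoxib (blue) and vehicle (grey), and the group mean with its SD as a black bar (n = 5). The groups overlap in all 4 genes, and celecoxib 1 stands alone in Ece1 at 298 CPM.

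With p adjusted over all genes (Benjamini-Hochberg), edgeR called none of the 4 genes against vehicle. In celecoxib against vehicle 0 of 4 were called, as were 0 of all 15134 genes (0%), and at an unadjusted p under 0.05 the counts were 0 of 4 members and 1896 of all genes (12.5%). In rofecoxib against vehicle 0 of 4 were called, beside 0%, and at an unadjusted p under 0.05 there were 0 of 4, beside 5.18%. DESeq2 and limma-voom also called 0 of 4 in each comparison, while over all genes DESeq2 called 126 in celecoxib against vehicle and 0 in rofecoxib against vehicle, and limma-voom 0 in both. The comparisons against vehicle share their control libraries. The median log2 fold change of the 4 genes was 0.04 in celecoxib against vehicle, where that of all genes was 0.00512, and -0.11 in rofecoxib against vehicle, where that of all genes was -0.000666.

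The inhibitors were also set against each other, at 30 mg/kg celecoxib and 10 mg/kg rofecoxib, so that a difference may be one of dose as much as of compound. The fold change in celecoxib against rofecoxib was 1.07 (0.912 to 1.26) for Edn1, 1.10 (0.867 to 1.41) for Ednra and 1.18 (0.767 to 1.82) for Ednrb, with adjusted p between 0.865 and 0.882. Ece1 stood at 1.31-fold (1.03 to 1.66), with an unadjusted p of 0.0311 and an adjusted p of 0.698 by edgeR, and 4 of 5 celecoxib libraries lay above the rofecoxib median. Over all genes 0 were called in this comparison by edgeR (0%), 19 by DESeq2 and 0 by limma-voom. At an unadjusted p under 0.05 there was 1 of 4 members, beside 6.96% of all genes. Without celecoxib 1 the log2 fold change of Ece1 was 0.16 in place of 0.39, with an unadjusted p of 0.0881 by edgeR.

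Celecoxib 1 also differed in other genes. Fkbp5, which glucocorticoids induce, had 972 CPM there and 43.6 to 280 CPM in the other 14 libraries, and the metallothionein gene Mt2 had 1890 CPM there and 25.6 to 304 elsewhere. These 2 genes were chosen after their values were seen. The convertase genes Furin and Pcsk7 were highest in celecoxib 1 too, at 166 CPM against 105 to 153 elsewhere and at 58.1 CPM against 37.9 to 48.5 elsewhere. Of the endothelial markers, Cdh5, which encodes the endothelial cadherin, was at 85.3 CPM in celecoxib 1 and at a median of 87.5 elsewhere. Pecam1 was highest in celecoxib 1, at 422 CPM against 251 to 399 elsewhere. Cdh5 and Pecam1 were also chosen after their values were seen. The part of these transcripts in the level of Ece1 was not tested.

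The rest of the peptide's pathway was described from a list of 13 genes of ligands, processing and breakdown, 10 of which were tested. By edgeR and limma-voom 0 of them were called in any of the 3 comparisons, beside 0% of all genes by edgeR. DESeq2 also called 0, beside 126 over all genes in celecoxib against vehicle, 0 in rofecoxib against vehicle and 19 in celecoxib against rofecoxib. It gave an adjusted p to 7, 10 and 9 of the genes in these comparisons, and the rest could not be called. At an unadjusted p under 0.05 there was 1 of 10 in celecoxib against vehicle, beside 12.5% of all genes, 0 of 10 in rofecoxib against vehicle, beside 5.18%, and 1 of 10 in celecoxib against rofecoxib, beside 6.96%. The median log2 fold change of the list was 0.09 in celecoxib against vehicle, 0.01 in rofecoxib against vehicle and 0.14 in celecoxib against rofecoxib. Without celecoxib 4 the first of these was 0.00507 and the last -0.06.

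Among the convertases, Furin averaged 135 ± 19.6 CPM (SD, n = 5) in celecoxib, 115 ± 8.15 in rofecoxib and 130 ± 14.8 in vehicle. Its fold change was 1.04 in celecoxib against vehicle, 0.886 in rofecoxib against vehicle and 1.17 in celecoxib against rofecoxib, the last with an unadjusted p of 0.0312 and an adjusted p of 0.698 by edgeR. Without celecoxib 1 the log2 fold change of Furin in celecoxib against rofecoxib was 0.145 in place of 0.23. Pcsk7 averaged 46.6 ± 7.74 CPM in celecoxib, 40.7 ± 2.07 in rofecoxib and 40.4 ± 2.96 in vehicle, with an unadjusted p of 0.0441 and an adjusted p of 0.384 by edgeR in celecoxib against vehicle. Without celecoxib 1 its log2 fold change there was 0.125 in place of 0.21, and with the adipocyte markers as a covariate 0.33. Pcsk5 and Pcsk6 had fold changes between 0.993 and 1.08 in all 3 comparisons.

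Of the enzymes that end the signal, Mme, which encodes the peptide-degrading protease neprilysin, averaged 10.1 ± 2.04 CPM in celecoxib, 10.1 ± 2.98 in rofecoxib and 12.8 ± 2.86 in vehicle. Its adjusted p was 0.534 in celecoxib against vehicle and 1 in rofecoxib against vehicle by edgeR. The log2 fold change of Mme in celecoxib against vehicle was -0.34, and 0.12 with the adipocyte markers as a covariate. In rofecoxib against vehicle it was -0.35, and -0.079 without the 4 nerve-rich libraries. Ctsa, the lysosomal cathepsin A that can inactivate endothelin-1, was the most even of the list, at 202 ± 4.68, 211 ± 9.38 and 208 ± 8.12 CPM in the same groups. Cma1, the mast cell chymase, which can also cut big endothelin-1, was low at 0.493 to 1.70 CPM over all libraries.

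The sister genes were sparse. Edn2 had 0 to 5 counts per library, with 0 in 2 of 15 libraries, and did not pass the filter. Kel, a protease that acts on big endothelin-3 in humans, had 0 counts in 12 libraries and at most 1 elsewhere. Edn3 had 11 to 86 counts, and its level per kilobase was 0.0859 to 0.671 CPM over all libraries, where that of Edn1 was 6.80 to 10.9. Edn3 averaged 1.23 ± 0.908 CPM in celecoxib, 0.934 ± 0.509 in rofecoxib and 0.837 ± 0.441 in vehicle. Ece2, the acid-active relative of Ece1, averaged 11.1 ± 3.83, 13.6 ± 1.67 and 12.9 ± 2.02 CPM in the same groups. Celecoxib 1, 2, 3 and 5 had 10.0, 9.08, 9.48 and 9.04 CPM, and celecoxib 4 had 17.9 CPM. Vehicle libraries had 11.5 to 16.5 CPM and rofecoxib libraries 10.7 to 14.9 CPM. The log2 fold change of Ece2 in celecoxib against vehicle was -0.22, with adjusted p = 0.671 by edgeR. Without celecoxib 4 it was -0.445, and with the adipocyte markers as a covariate 0.0963. In celecoxib against rofecoxib it was -0.289, and -0.525 without celecoxib 4.

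**Figure D3:**
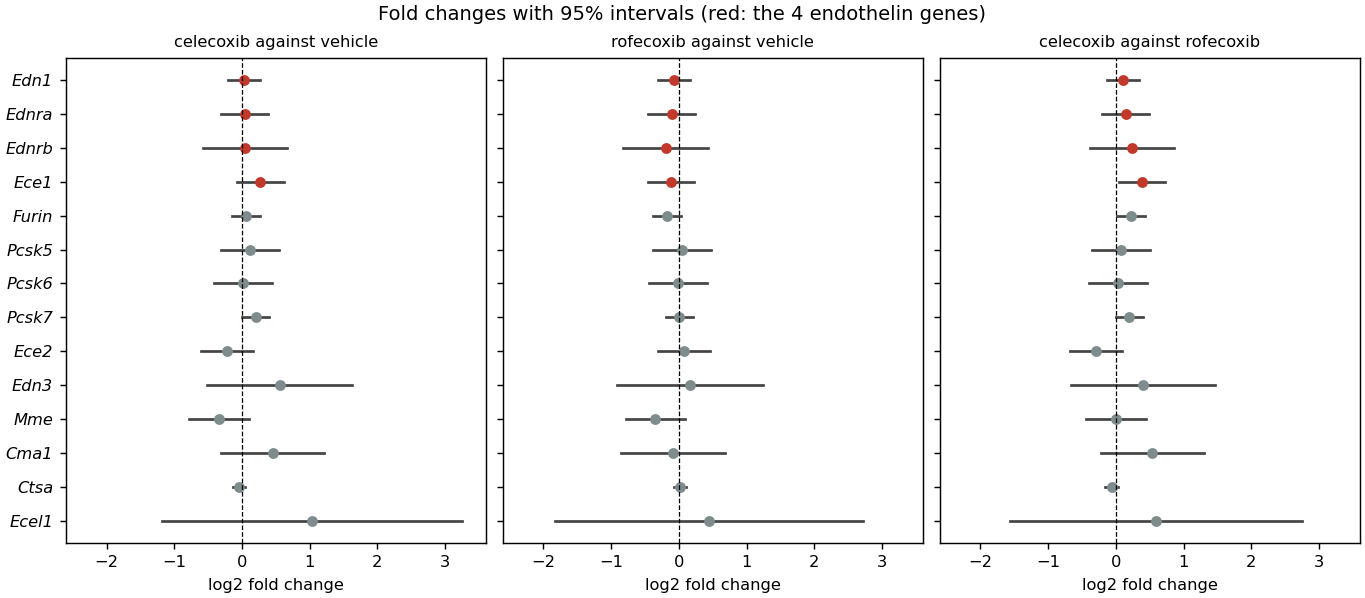
Log2 fold change by edgeR with its 95% interval (line) for the 4 endothelin genes (red points) and 10 further genes of ligands, processing and breakdown (grey points), with 1 panel for each inhibitor against vehicle and 1 for celecoxib against rofecoxib. The interval of the sparse gene Ecel1 is the widest, and the points of Ednra, Ednrb and Edn1 lie within 0.24 of 0 in all 3 comparisons.

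In bulk RNA, fewer cells of a type and less RNA per cell cannot be told apart. Levels of the 4 genes were set against 9 cell type marker lists over the 15 libraries, 36 relations in all, with 100000 permutations each. The melanocyte list rested on 2 tested genes and the mesothelial list on 1. Ednrb followed the mean of the 15 endothelial markers, with Pearson's r = 0.721 (permutation p = 0.00242, adjusted p = 0.0648) and Spearman's rho = 0.579 (permutation p = 0.0276, adjusted p = 0.142). The libraries lowest in endothelial markers, rofecoxib 2 and celecoxib 3, were also the lowest in Ednrb, at 5.84 and 6.60 CPM. Without these 2 libraries r was 0.408, so the relation rests on them. It did not pass the adjustment. Ednra ran with the same list too, with r = 0.541 (permutation p = 0.0384, adjusted p = 0.241). Its rho was 0.657 (permutation p = 0.0101, adjusted p = 0.141), and its r was 0.497 without the same 2 libraries.

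Edn1 showed a weaker relation to the endothelial list, with r = 0.300 (permutation p = 0.275, adjusted p = 0.550) and rho = 0.425 (permutation p = 0.114, adjusted p = 0.291), and r = 0.371 without the same 2 libraries. Its closest list was that of fibroblast markers, which include Pdgfra and the collagen gene Col1a2. Here r was 0.700 (permutation p = 0.0036, adjusted p = 0.0648) and rho 0.589 (permutation p = 0.0229, adjusted p = 0.141). Without vehicle 5 and rofecoxib 5, the libraries farthest from the median of that list, r was 0.419. With each group centred on its mean r was 0.691 for Edn1 and the fibroblast list and 0.744 for Ednrb and the endothelial list. None of the 36 relations passed the adjustment.

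Among the 4 genes themselves, 6 relations were computed. The receptor genes were the closest pair, with r = 0.636 (permutation p = 0.0108, adjusted p = 0.0649) and rho = 0.571 (permutation p = 0.029, adjusted p = 0.174), and r = 0.445 without celecoxib 1 and celecoxib 5. The ligand and its converting enzyme had r = 0.411 (permutation p = 0.133, adjusted p = 0.399) and rho = 0.429 (permutation p = 0.112, adjusted p = 0.287), and r = 0.380 without celecoxib 5 and rofecoxib 5. No pair passed the adjustment.

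Of 10 ligand, processing and breakdown genes set against the mean of the Schwann cell and sympathetic neuron markers, Edn3 and Ecel1 passed the adjustment over these 10 relations and the other 8 did not. These genes were set against no other marker list, and the lists were chosen with earlier results of these data known. The adjustment does not cover that choice, so the relations are descriptions. Edn3 is a ligand with a known role in neural crest cells. It had 0.746, 1.38, 0.656, 2.76 and 0.615 CPM in celecoxib 1 to 5, 0.645, 0.734, 1.51, 0.353 and 1.42 CPM in rofecoxib 1 to 5, and 0.546, 0.921, 0.373, 1.52 and 0.821 CPM in vehicle 1 to 5. The highest library, celecoxib 4, was also the richest in nerve markers. Its r was 0.836 (permutation p = 0.0001, adjusted p = 0.0005) and its rho 0.704 (permutation p = 0.00426, adjusted p = 0.0213), and r was 0.738 without rofecoxib 5 and celecoxib 4. Ecel1, a neuronal relative of the converting enzymes, was sparse, with 0 to 56 counts per library and 0 in 1 of them. Its r was 0.925 (permutation p = 1e-05, the smallest that the permutations can give, adjusted p = 0.0001). Its rho was 0.896 (permutation p = 2e-05, adjusted p = 0.0002), and r was 0.871 without rofecoxib 5 and celecoxib 4. Ednrb, which Schwann cell precursors also express, had r = 0.464 with the nerve list (permutation p = 0.0818, adjusted p = 0.368) and rho = 0.589 (permutation p = 0.0235, adjusted p = 0.141), and r = 0.321 without them. With each group centred on its mean r was 0.866 for Edn3 and 0.929 for Ecel1.

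**Figure D4:**
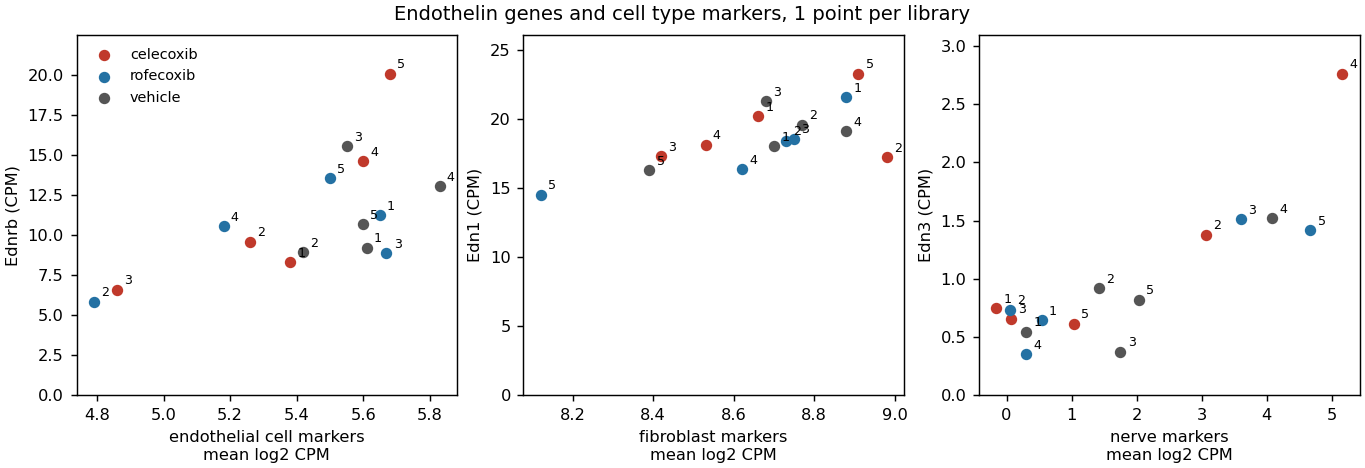
CPM of Ednrb, Edn1 and Edn3 against the mean log2 CPM of the endothelial, fibroblast and nerve marker lists, with 1 point per library (celecoxib red, rofecoxib blue, vehicle grey) labelled by its number. Ednrb is lowest in rofecoxib 2 and celecoxib 3, Edn1 is lowest in rofecoxib 5, and Edn3 reaches 2.76 CPM in celecoxib 4, with the groups intermixed in all 3 panels.

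The genes whose levels ran most like each of the 4 were ranked by Pearson's r of log2 CPM over the 15 libraries, among 11736 named genes of at least 1 CPM. The values are descriptions, since all genes share the libraries. For Edn1 they were Smoc2 (r = 0.870), an extracellular calcium-binding protein gene, the adhesion protein gene Svep1 (0.858), the costimulatory ligand gene Icosl (0.852), Emp1 (0.841) and Igsf10 (0.822), and each kept an r of 0.791 or more without celecoxib 5. The lowest were Slc16a11 (-0.877), the carbonic anhydrase relative Car11 (-0.853) and Rogdi (-0.829). For Ednra they were the potassium channel partner gene Kcnip3 (0.928), the homeobox gene Alx4 (0.899), the imprinted RNA gene H19 (0.899), Sytl2 (0.896) and the adenylate kinase gene Ak5 (0.880), with Nsmce2 (-0.849) and Srl (-0.837) at the other end.

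For Ednrb the likest genes were Btbd3 (r = 0.868), the septin gene Sept11 (0.836), the prostaglandin transporter gene Slco2a1 (0.831), Tmem176a (0.830) and Rai14 (0.825), and the least like Pgcp (-0.891), Ppef1 (-0.889) and Sh3bgr (-0.800). All 5 likest genes were, like Ednrb itself, highest in celecoxib 5, and Slco2a1 ranged from 11.5 to 30.4 CPM. Without that library their r with Ednrb was 0.756 to 0.825, and 0 of them stayed among the 5 likest. For Ece1 the likest were H6pd (0.936), which supplies cofactor for the reduction that regenerates active glucocorticoids, Plxna2 (0.936), Fam40b (0.927), the glycyl-tRNA synthetase gene Gars (0.922) and the glutamine synthetase gene Glul (0.917). All 5 were highest in celecoxib 1, Glul at 2400 CPM against a median of 508 CPM elsewhere, and without that library their r with Ece1 was 0.712 to 0.756. The least like were Pstk (-0.961), Adi1 (-0.946) and the mitochondrial transhydrogenase gene Nnt (-0.943), and these kept r between -0.870 and -0.832 without celecoxib 1.

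Transcription factors and other regulators of Edn1 formed a list of 25 genes, 24 of which were tested. By edgeR none was called in any comparison, beside 0% of all genes, and limma-voom called none either. DESeq2 called 1 of the 24, Jun, in celecoxib against rofecoxib, beside 19 over all genes. In each inhibitor against vehicle it called 0 of the 24, beside 126 over all genes for celecoxib and 0 for rofecoxib. At an unadjusted p under 0.05, 2 were higher and 1 lower in celecoxib against vehicle (beside 5.35% and 7.18% of all genes), 1 higher and 1 lower in rofecoxib against vehicle (beside 1.47% and 3.71%), and 1 higher and 1 lower in celecoxib against rofecoxib (beside 4.05% and 2.91%). Jun, a subunit of AP-1, averaged 133 ± 27.5 CPM (SD, n = 5) in celecoxib, 89.1 ± 7.25 in rofecoxib and 100 ± 9.45 in vehicle, and all 5 celecoxib libraries lay above the vehicle median. The unadjusted p of Jun was 0.00396 in celecoxib against vehicle and 0.000245 in celecoxib against rofecoxib by edgeR, with adjusted p of 0.275 and 0.605. By DESeq2 the adjusted p of Jun in celecoxib against rofecoxib was 0.0106. Pparg, a nuclear receptor of fat cells, stood at 0.494-fold and Arnt, the partner of the hypoxia factors, at 1.10-fold in celecoxib against vehicle. With the adipocyte markers as a covariate the log2 fold change of Pparg was -0.0289 in place of -1.02, and that of Jun in celecoxib against vehicle 0.24 in place of 0.41. The covariate was itself lower in celecoxib than in vehicle, and Pparg is a fat cell gene too. Treatment and fat content cannot be told apart in this fit. Cav1, the caveolar coat gene, stood at 1.11-fold, Klf4 at 0.831-fold and Tgfbr2 at 1.06-fold in rofecoxib against vehicle. With the endothelial markers as a covariate the log2 fold change of Klf4 was -0.16 in place of -0.27.

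Gata2, which drives Edn1 in endothelium, averaged 12.7 ± 4.84 CPM in celecoxib, 11.8 ± 4.26 in rofecoxib and 11.9 ± 4.42 in vehicle. Hif1a averaged 176 ± 18.4 CPM in celecoxib, 181 ± 9.94 in rofecoxib and 179 ± 33.0 in vehicle. These and Jun were named for the motifs marked in the Edn1 window above, a choice made after values were seen.

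The signalling list downstream of the receptors held 36 genes, all tested. By edgeR and limma-voom 0 of 36 were called in any comparison, beside 0% of all genes by edgeR. DESeq2 also called 0, beside 126 over all genes in celecoxib against vehicle, 0 in rofecoxib against vehicle and 19 in celecoxib against rofecoxib. It gave an adjusted p to 34, 36 and 36 of the genes in these comparisons. At an unadjusted p under 0.05, 0 were higher and 1 lower in celecoxib against vehicle, 1 higher and 1 lower in rofecoxib against vehicle, and 2 higher and 1 lower in celecoxib against rofecoxib, beside the same shares of all genes. Adrbk2, a receptor kinase gene, averaged 26.7 ± 5.27 CPM in celecoxib, 29.3 ± 3.78 in rofecoxib and 37.0 ± 5.38 in vehicle. None of the celecoxib or rofecoxib libraries lay above the vehicle median of Adrbk2, and its unadjusted p was 0.00302 and 0.022 by edgeR. With the adipocyte markers as a covariate the log2 fold change of Adrbk2 was -0.19 in place of -0.47 in celecoxib against vehicle and -0.15 in place of -0.34 in rofecoxib against vehicle. Plcb4, a phospholipase C that Gq activates, averaged 458 ± 25.2 CPM in celecoxib, 536 ± 45.3 in rofecoxib and 443 ± 32.3 in vehicle, with an unadjusted p of 0.00107 in rofecoxib against vehicle and 0.00438 in celecoxib against rofecoxib by edgeR. Rgs5, which shortens Gq signals, averaged 3150 ± 824 CPM in celecoxib, 2288 ± 198 in rofecoxib and 2615 ± 412 in vehicle. The other genes of smallest p were Plcb3, at 0.931-fold, and Rgs3, at 0.856-fold, in celecoxib against vehicle, and Prkcd, at 0.844-fold in rofecoxib against vehicle and 1.29-fold in celecoxib against rofecoxib. By edgeR the adjusted p of Adrbk2 was 0.270 in celecoxib against vehicle and 0.896 in rofecoxib against vehicle, and that of Plcb4 was 0.896 in rofecoxib against vehicle and 0.649 in celecoxib against rofecoxib.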

How the data were processed

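The authors deposited 1 table of gene counts for 15 libraries, each from 1 mouse. The submitters' processing notes name CASAVA 1.8.2, STAR 2.5.2a and the build mm9. The tool that made the counts and its strand setting are not stated in these sources. The deposited count totals spread over 0.0971% of their mean, for which no step is stated. Libraries were built over 3 days, and no day is given per library, so that no batch term could be fitted. Counts were tested with edgeR 4.0.16 (quasi-likelihood, TMM scaling, filterByExpr, all 15 libraries in 1 fit), adjusted by Benjamini-Hochberg over 15134 genes at 0.05. CPM use the scaled library sizes, and log2 CPM a prior count of 2. DESeq2 1.42.0, which leaves the adjusted p of some low genes empty, and limma 3.58.1 were alternatives. In simulated counts for celecoxib against vehicle over 15134 genes, 200 genes were changed in each of 3 runs. There 46.7% of 1.5-fold and 74% of 2-fold changes were recovered. The simulated counts were drawn independently for each gene and library, without the differences that many genes share between the real libraries. These shares therefore do not give the recovery in the real comparison. The members and gene lists were chosen with earlier results of these data known. Genes named are the members, the tested ligand, processing and breakdown genes, the 3 of smallest p per other pathway list and comparison, and for each member the 5 most and 3 least like genes, beside Kdr and those marked as chosen after their values were seen. One gene that this rule names is not reported here. Of the 30 library pairs compared, none was a duplicate: the smallest chi-square per gene was 13.1.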

Additional observations from a re-analysis of the deposited data

Results flagged for a closer look

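In 7 of 78 groups of 5 libraries, over 26 named genes, 1 library lay far from the rest of its group by Dixon's test, where chance gives about 1 in 20. The genes share the same libraries, so these flags are not independent of each other. No share over all tested genes is set beside this count. Ece1 had 298 CPM in celecoxib 1, and the next highest celecoxib library had 177. Ecel1 had 1.8 CPM in celecoxib 4, with 0.483 next. Ece2 had 17.9 CPM in celecoxib 4, with 10.0 next. In rofecoxib 4 Ece2 was low at 10.7 CPM, with 13.9 next, and in vehicle 4 it was high at 16.5 CPM, with 12.4 next. Adrbk2 had 35.8 CPM in celecoxib 4, with 26.3 next. Cma1 had 1.59 CPM in vehicle 4, with 0.771 next.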

How the results depend on the processing

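For the 4 endothelin genes in 3 comparisons, 324 alternative values were computed, none of them called, with a smallest adjusted p of 0.295. Of these 306 kept their direction and 18 turned it. In celecoxib against vehicle the log2 fold change of Ednra was -0.0875 with the adipocyte covariate, and that of Ednrb was -0.0427 with limma-voom. In rofecoxib against vehicle it was 0.0012 for Edn1 without the 4 nerve-rich libraries, 0.0191 for Ednra and 0.0953 for Ednrb with the endothelial covariate, and 0.0834 for Ece1 with the adipocyte covariate. Leaving out 1 library at a time gave -0.0398 to 0.0873 for Edn1, -0.0942 to 0.159 for Ednra, -0.224 to 0.201 for Ednrb and 0.0555 to 0.368 for Ece1 in celecoxib against vehicle, and -0.000617 to 0.253 for Ednra and -0.0383 to 0.386 for Ednrb in celecoxib against rofecoxib. The replicate numbers did not pair the libraries, since 6 of 15 correlations between same-numbered libraries were over 0.1, and a library's own number gave its highest correlation in 4 of 30 checks. With the replicate number as a block Ednrb stood at -0.0317 in celecoxib against vehicle, and no call was gained. Over all genes DESeq2 called 126 in celecoxib against vehicle and 19 in celecoxib against rofecoxib. Leaving out 1 library gave 0 to 8 calls (8 without celecoxib 4) and 0 to 1 (1 without celecoxib 5) in the same comparisons. Of the 5 genes most like each member, Spearman's rho kept 2 for Edn1, 3 for Ednra, 1 for Ednrb and 0 for Ece1, and centring on group means kept 3 for Ednra, 2 for Ednrb and 3 for Ece1. Leaving out 1 library, chosen after the data were seen, kept 2 to 5 for Edn1, 3 to 5 for Ednra, 0 to 5 for Ednrb and 0 to 5 for Ece1. The causes of these shifts were not tested.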

Other observations

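The receptor genes also ran with the mast cell markers, 5 of 7 of which were tested, without passing the adjustment over 36 relations. Of the tested markers Kit averaged 21.5 CPM over all libraries. The others, Cpa3, Tpsb2, Mcpt4 and Hdc, were low, with means of 1.08 to 2.17 CPM in celecoxib and vehicle. Ednrb had r = 0.651 (permutation p = 0.00875, adjusted p = 0.0962) and rho = 0.729 (permutation p = 0.00289, adjusted p = 0.104), and r = 0.514 without celecoxib 1 and celecoxib 5. Ednra had r = 0.640 (permutation p = 0.0107, adjusted p = 0.0962) and rho = 0.561 (permutation p = 0.0329, adjusted p = 0.148), and r = 0.341 without the same libraries.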
